A study of Homo sapiens with 2 samples.

Results

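TRIM proteins are a large family of ubiquitin ligases, and the genes described here are those whose symbol is TRIM followed by a number. They were chosen by symbol alone, as transcript clusters that carry a single TRIM symbol in the platform annotation, with pseudogenes and antisense genes left out. A transcript cluster is the set of array probes for 1 transcribed locus. 62 TRIM genes were measured, of 22411 named genes in all, through 108 transcript clusters. 12 further clusters name a TRIM gene together with another gene and were left out. TRIM13, TRIM22, TRIM25, TRIM34 and TRIM58 therefore have no value of their own here. The same holds for the duplicated copies TRIM43, TRIM49C, TRIM49D1, TRIM49D2, TRIM64B and TRIM73. TRIM16L fits the symbol but is listed as a transcribed pseudogene in RefSeq, and it is given only beside TRIM16.

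The cells were 769-P, a line established from a human clear-cell carcinoma of the kidney that the labels call non-metastatic. 1 array held RNA of cells that received the lentiviral vector pLV-EGFP-FOXK2, which carries the coding sequence of the forkhead transcription factor FOXK2, and 1 array held RNA of cells that received the plv-EGFP empty vector. Both groups thus carry EGFP and a lentiviral vector, and the labels name no untransduced cells, clone or time after transduction. With 1 array per group there is no replicate spread and no test, and every difference below is a single measurement of these 2 arrays.

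Values are the deposited log2 expression values, and a difference is the log2 value of the FOXK2 array minus that of the empty vector array, so 1 is 2-fold. FOXK2 itself stood at 13.82 in the FOXK2 array and 9.36 in the empty vector array, higher by 4.46, the direction that the labels give. PAX8, a transcription factor of the kidney lineage, stood at 10.80 in the FOXK2 array and 10.96 in the empty vector array, while the 8 measured leukocyte and endothelial markers lay between 3.14 and 5.03 in the FOXK2 array and between 3.35 and 4.88 in the empty vector array. Of 10 measured markers of kidney tubule and clear-cell carcinoma, 4 had values 2-fold or more above those with empty vector and 0 had values as far below. Among all genes that passed the level limit described below, 2.13% were 2-fold higher and 3.05% were 2-fold lower. 5 of the 10 markers had a difference below 0, the lowest at -0.37. The 4 higher ones were CUBN and LRP2, endocytic receptors of the proximal tubule, the peptidase MME and NNMT. Their differences lay between 1.71 and 3.43, and their part in the TRIM values was not tested. A gene entered the counts where the mean of its 2 values reached 5.24, the level limit below, which is the median of the transcript clusters with a single gene symbol. Over the 11263 genes that passed, the median difference was -0.050 and 95% lay between -1.09 and 0.93. Where 1 gene had several transcript clusters on the ordinary chromosomes (176 genes above the limit), their differences had a median SD of 0.17, which is a scale for probe disagreement within these arrays and not for biological spread.

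Most TRIM proteins share a RING finger, which recruits the ubiquitin-loaded E2 enzyme, followed by B-box zinc fingers and a coiled coil through which they pair. The domain after the coiled coil differs between classes and selects the target: PRY-SPRY domains bind proteins such as viral capsids, PHD and bromodomains read histone tails, and NHL repeats bind RNA or protein partners. Many PRY-SPRY members are induced by interferon and act in antiviral defence, while the PHD-bromodomain members act in the nucleus as transcriptional cofactors.

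Printed below are the promoters of the 5 measured interferon-induced members that hold an interferon response motif. The promoter of TRIM32, the TRIM gene with the largest difference, is added. Each window runs from 250 bases before to 50 bases after the outermost start that RefSeq lists (GRCh38.p14), is written 5′ to 3′ on the gene's strand, and has in capitals the interferon response motif, which was searched as GAAA, any 2 bases and GAAA again on either strand (on the other strand it reads TTTC, 2 bases and TTTC), with overlapping copies merged. They are TRIM5 (chr11:5685025-5685324, - strand), TRIM14 (chr9:98119173-98119472, - strand), TRIM21 (chr11:4393653-4393952, - strand), TRIM26 (chr6:30213357-30213656, - strand), TRIM69 (chr15:44736278-44736577, + strand) and TRIM32 (chr9:116687055-116687354, + strand).
TRIM5: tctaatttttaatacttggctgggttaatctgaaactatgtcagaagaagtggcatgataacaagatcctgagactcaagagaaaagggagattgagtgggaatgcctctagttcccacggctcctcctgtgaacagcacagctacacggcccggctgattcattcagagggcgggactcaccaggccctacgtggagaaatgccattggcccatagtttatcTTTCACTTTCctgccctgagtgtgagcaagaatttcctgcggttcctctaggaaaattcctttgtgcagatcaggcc
TRIM14: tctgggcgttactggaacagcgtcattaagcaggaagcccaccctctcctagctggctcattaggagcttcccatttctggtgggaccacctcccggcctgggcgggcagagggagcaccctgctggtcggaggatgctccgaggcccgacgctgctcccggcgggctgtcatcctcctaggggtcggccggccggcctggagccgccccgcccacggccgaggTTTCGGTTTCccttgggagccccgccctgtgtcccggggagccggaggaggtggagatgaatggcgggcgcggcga
TRIM21: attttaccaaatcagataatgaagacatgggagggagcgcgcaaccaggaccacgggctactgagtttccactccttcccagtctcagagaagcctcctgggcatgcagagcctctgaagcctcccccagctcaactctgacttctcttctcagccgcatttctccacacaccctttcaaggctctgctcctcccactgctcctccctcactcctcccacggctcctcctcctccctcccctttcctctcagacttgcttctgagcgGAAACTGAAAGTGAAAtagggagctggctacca
TRIM26: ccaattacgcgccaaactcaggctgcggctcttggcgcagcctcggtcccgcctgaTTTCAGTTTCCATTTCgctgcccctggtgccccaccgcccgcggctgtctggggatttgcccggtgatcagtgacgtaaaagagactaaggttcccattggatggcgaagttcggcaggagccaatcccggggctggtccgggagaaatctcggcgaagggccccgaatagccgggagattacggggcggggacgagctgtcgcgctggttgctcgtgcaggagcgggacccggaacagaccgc
TRIM69: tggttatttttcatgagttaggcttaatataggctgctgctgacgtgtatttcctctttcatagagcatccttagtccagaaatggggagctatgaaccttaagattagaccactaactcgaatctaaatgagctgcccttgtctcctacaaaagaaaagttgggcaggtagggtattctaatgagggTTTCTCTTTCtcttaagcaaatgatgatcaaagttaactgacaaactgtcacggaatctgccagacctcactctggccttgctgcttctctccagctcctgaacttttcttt
TRIM32: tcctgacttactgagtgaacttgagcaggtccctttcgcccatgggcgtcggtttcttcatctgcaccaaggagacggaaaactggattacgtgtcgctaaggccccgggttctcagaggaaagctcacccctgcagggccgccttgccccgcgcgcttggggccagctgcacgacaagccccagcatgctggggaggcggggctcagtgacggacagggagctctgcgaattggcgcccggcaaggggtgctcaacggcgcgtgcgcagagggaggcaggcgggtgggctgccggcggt

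RefSeq promoters were at hand for 50 of the 62 TRIM genes, and 9 of them (18%) held the interferon motif, against 3.66% of 27305 promoters of all genes. Of the 7 measured genes on the list of interferon-induced members, 5 held it, the ones printed above. TRIM21 carries 2 overlapping copies that start 17 and 23 bases after the transcription start, and TRIM26 carries 2 that start 194 and 188 bases before it. In TRIM5 and TRIM14 the motif starts 27 and 26 bases before the transcription start, and in TRIM69 it starts 62 bases before it. The forkhead motif GTAAACA (both strands) was found in 1 of the 50 TRIM promoters (2%), that of TRIM51G, against 3.44% of all promoters, and in 0 of the 24 promoters of TRIM genes at or above the level limit. Such matches describe letters in a window of fixed length; binding of FOXK2 was not measured here.

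31 of the 62 TRIM genes reached the level limit and 31 did not. The median difference of the 31 that passed was -0.20. Of these 31, TRIM32 alone was at least 2-fold lower in FOXK2 cells (3.05% of all genes above the limit were), and 0 were at least 2-fold higher (2.13% of all genes were). At a limit of 1.5-fold, 4 were lower (12.9%, against 10.6% of all genes) and 0 were higher (6.09% of all genes). Both shares of lower genes are near those of all genes. 23 of the 31 (74.2%) had a difference below 0, against 55.6% of all genes at that level. The TRIM genes counted are all protein-coding. Of the protein-coding genes above the limit, 58.1% lay below 0 and 11.2% were at least 1.5-fold lower. For 12 of the 31 the difference was smaller in size than the 0.17 by which transcript clusters of 1 gene disagree. The same held for 4315 of all 11263 genes above the limit, a similar share.

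**Figure D1:**
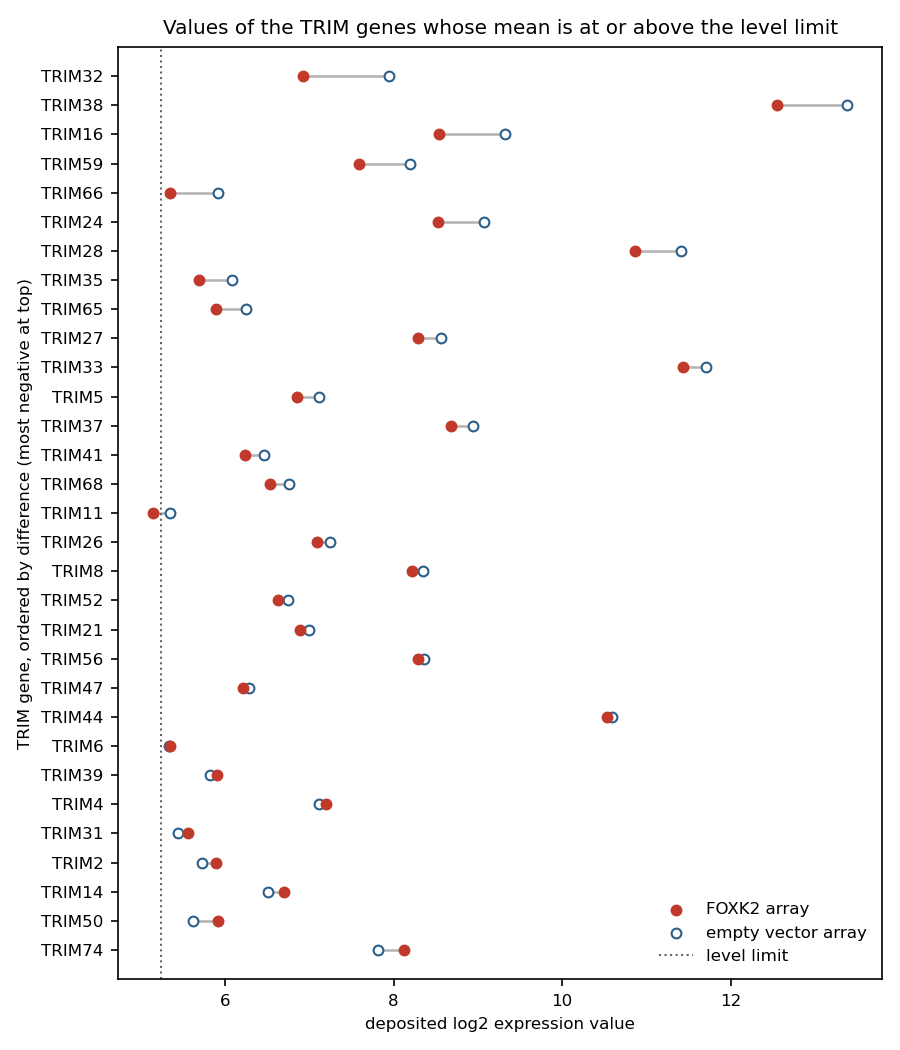
Deposited log2 expression values (horizontal axis) of the 31 TRIM genes whose mean reached the level limit, 1 gene per row, for the FOXK2 array (filled) and the empty vector array (open), with the dotted line at the level limit of 5.24. The FOXK2 point lies left of the empty vector point in the 23 upper rows, with the widest gap in TRIM32, and right of it in the 8 lower rows.

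**Figure D2:**
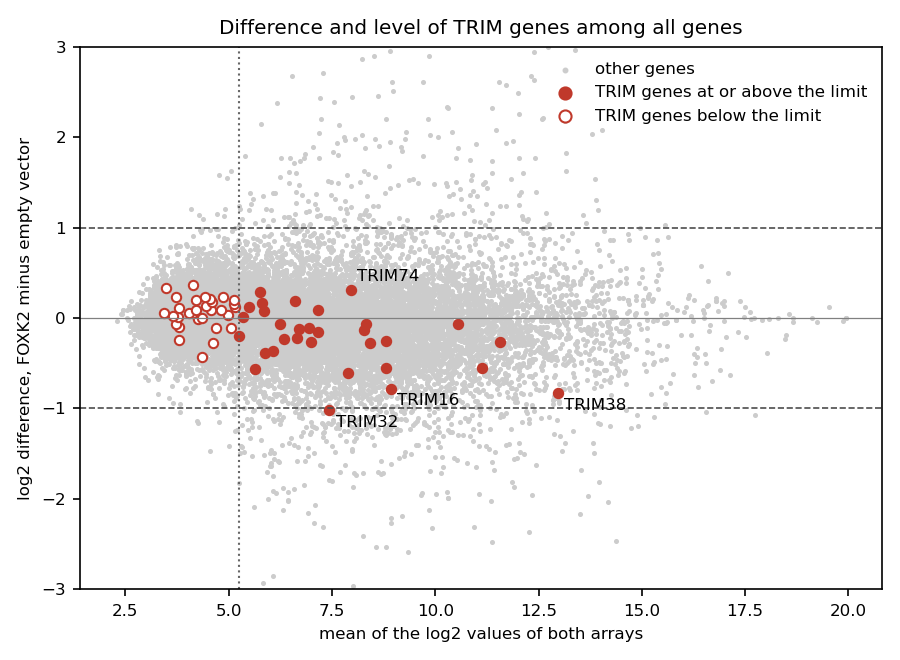
Log2 difference, FOXK2 minus empty vector (vertical axis), against the mean log2 value of both arrays (horizontal axis) for TRIM genes (red) and all other genes (grey), with dashed lines at 2-fold and a dotted line at the level limit; 21 genes with a difference of 3 or more in size lie outside the plot. TRIM32, at -1.02, is the 1 TRIM gene past a dashed line.

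The plot of values by gene shows mostly small differences among the 31 genes above the limit, 23 of them below 0, and the plot against level shows these points inside the cloud of all genes. Over all 62 TRIM genes, 31 differences lay below 0, 30 above it and 1 at it, with a median of -0.0060. For comparison, the ubiquitin-specific proteases, which remove ubiquitin, gave -0.14 as the median of their 38 members above the limit, 24 of which lay below 0 (63.2%). The RNF genes, another set of RING ligases, gave -0.029 for 49 genes, 26 of which lay below 0 (53.1%). Whether these sets differ from the TRIM genes was not tested.

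The largest differences belonged to members of different classes. TRIM32, a ligase with NHL repeats that is mutated in a limb-girdle muscular dystrophy, stood at 6.93 in the FOXK2 array and 7.95 in the empty vector array. Its difference of -1.02 makes it 2.03-fold lower. It lay at the 2-fold limit. TRIM38, a PRY-SPRY ligase that restrains inflammatory signalling, stood at 12.55 with FOXK2 and 13.38 with empty vector, 1.78-fold lower. TRIM16, which has no RING and works with galectin-3 in the autophagy of damaged lysosomes, stood at 8.54 with FOXK2 and 9.33 with empty vector, 1.72-fold lower. Its partial copy TRIM16L, on the same chromosome, had 10.14 with FOXK2 and 10.86 with empty vector (-0.72); probes may be shared between the 2 genes, so these are not separate measurements. TRIM59, which is anchored in a membrane, stood at 7.58 with FOXK2 and 8.19 with empty vector, 1.52-fold lower.

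All 4 PHD-bromodomain genes passed the level limit. All 4 had lower values in FOXK2 cells (55.6% of all genes above the limit did), and their median difference was -0.55. These proteins join histone reading to ubiquitin or SUMO ligase activity, or bring heterochromatin proteins to their targets. TRIM24, a nuclear receptor cofactor that also targets p53, stood at 8.52 with FOXK2 and 9.07 with empty vector. TRIM28, the corepressor KAP1 of KRAB zinc finger proteins, stood at 10.86 with FOXK2 and 11.41 with empty vector. The differences of these 2 genes, both -0.55, amount to 1.47-fold and 1.46-fold lower. TRIM66, a relative that binds heterochromatin protein 1, stood at 5.34 with FOXK2, close to the level limit, and at 5.91 with empty vector (difference -0.57). TRIM33, a ligase of SMAD4, stood at 11.44 with FOXK2 and 11.71 with empty vector, which is a smaller gap of -0.27. None of the 4 reached 1.5-fold, by which 10.6% of all genes above the limit were lower.

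The PRY-SPRY class with a RING finger was the largest, with 24 genes measured and 15 above the limit. Of these 15, 11 had a difference below 0 (73.3%, against 55.6% of all genes above the limit) and 4 above it, with a median of -0.20. After TRIM38, the lowest were TRIM35, which limits interferon induction through IRF7, at 5.70 with FOXK2 and 6.08 with empty vector, and TRIM65, an activator of the RNA sensor MDA5, at 5.89 with FOXK2 and 6.25 with empty vector. Their differences, -0.39 and -0.36, did not reach 1.5-fold. TRIM27, a transcriptional repressor first found as a fusion partner of RET, differed by -0.28. Its 7 transcript clusters, which lie on chromosome 6 and on alternative haplotypes of it, gave differences between -0.32 and -0.22.

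Closer to 0 in this class were TRIM41 (-0.23), TRIM68, a coactivator of the androgen receptor (-0.22), and TRIM11 (-0.20). TRIM11 stood at 5.14 with FOXK2 and 5.34 with empty vector, and its mean exceeded the level limit by only 0.0003. TRIM47 stood at -0.065 and TRIM6 at 0.013, a pair of values with no visible difference. On the positive side, TRIM39, an inhibitor of the anaphase-promoting complex, differed by 0.074, and TRIM4, a ligase of RIG-I, by 0.086. TRIM50, a gene of the stomach that lies in the Williams-Beuren region, stood highest in the class at 0.29, with 5.91 in the FOXK2 array and 5.62 in the empty vector array.

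Interferon-induced members were examined next, since a lentiviral vector was used in both groups. The list holds 10 genes. TRIM22, TRIM25 and TRIM34 are on it but have only clusters that also name another gene. Those clusters differed by 0.30, 0.066 and -0.36, cannot be assigned to 1 gene and were not counted. 6 of the 7 measured passed the level limit. Their median difference was -0.13, with 5 below 0 (83.3%, against 55.6% of all genes above the limit) and 1 above. TRIM38, at -0.83, had the largest difference of the 6. It was the 1 at least 1.5-fold lower (16.7%, against 10.6% of all genes). TRIM5, which binds and disassembles retroviral capsids, stood at 6.86 with FOXK2 and 7.12 with empty vector. TRIM21, the cytosolic antibody receptor, stood at 6.89 with FOXK2 and 6.99 with empty vector. TRIM26, which acts on IRF3, had 7.09 with FOXK2 and 7.24 with empty vector, a mean of 8 clusters whose differences ranged from -0.26 to -0.11. TRIM56, a ligase in the STING pathway, had 8.29 with FOXK2 and 8.36 with empty vector. TRIM14, a mitochondrial adaptor without a RING, was the 1 member with a higher value in FOXK2 cells, 6.69 against 6.50 with empty vector. The promoters of TRIM38 and TRIM56 lacked the motif in this window. Of the 9 TRIM genes that hold it, 7 passed the level limit. TRIM5, TRIM14, TRIM21 and TRIM26 did not differ by more than 0.26 in size, while TRIM16 (-0.78), TRIM2 (0.17) and TRIM44 (-0.063), which are not on the list of interferon-induced members, hold it too. TRIM64C and TRIM69, the other two, lay below the limit.

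**Figure D3:**
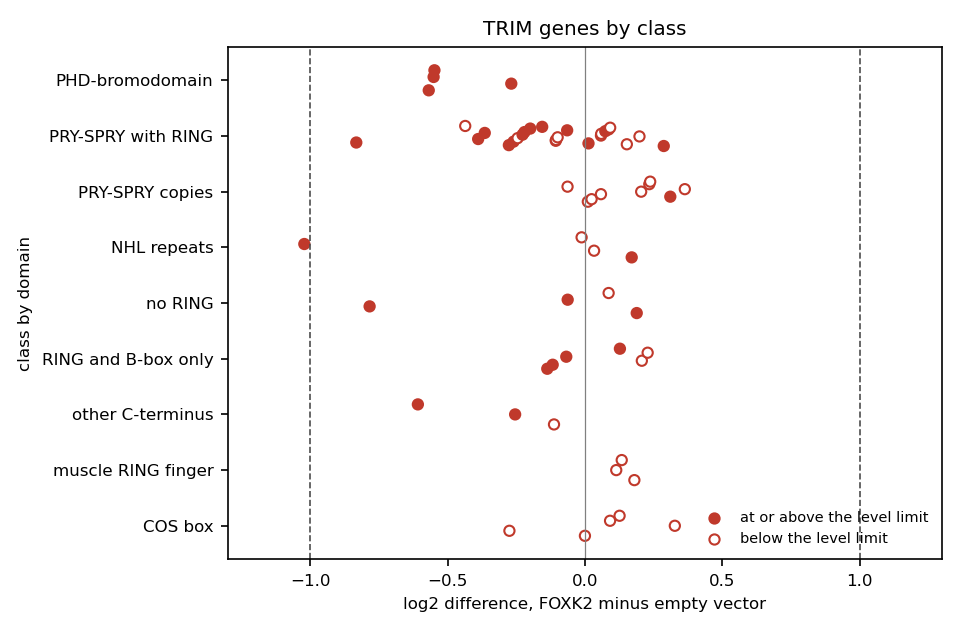
Log2 difference, FOXK2 minus empty vector (horizontal axis), of each of the 62 TRIM genes by class of the domain after the coiled coil (rows), with filled points for genes at or above the level limit, open points for genes below it and dashed lines at 2-fold. The 4 PHD-bromodomain genes all lie left of 0, between -0.57 and -0.27, and the muscle RING finger genes are all open points right of 0.

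The remaining classes held few members above the limit, as the plot by class shows. Besides TRIM32, the NHL class had TRIM2, a ligase of neurofilament light chain, at 5.90 with FOXK2 and 5.73 with empty vector, higher by 0.17. Its best known substrate gene NEFL was 2.56-fold higher, at 11.69 with FOXK2 and 10.34 with empty vector. Among members with only RING and B-boxes, TRIM8, which acts on SOCS1, differed by -0.14, TRIM52 by -0.12 and TRIM31, a ligase of the adaptor MAVS, by 0.13. TRIM37, whose loss causes mulibrey nanism and which limits centriole number, had 8.68 with FOXK2 and 8.94 with empty vector. TRIM44, a protein without RING that carries a zinc finger of deubiquitinases, had 10.53 with FOXK2 and 10.59 with empty vector. TRIM74, a copy of TRIM50, had the largest positive difference of the 31, 0.31, at 8.12 with FOXK2 and 7.81 with empty vector. It is near-identical to a further copy and its probes may be shared. A cluster that names TRIM74 and TRIM73 together, left out of the counts, had 7.53 with FOXK2 and 6.97 with empty vector (0.56).

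The 31 genes below the level limit lay between -0.44 and 0.36, with a median of 0.086. 8 of them had a difference below 0 and 22 above (25.8% below 0, against 34.2% of all genes below the limit), and 0 reached 2-fold (0.17% of those genes did, in either direction). None of the 3 muscle RING finger genes TRIM54, TRIM55 and TRIM63, whose proteins turn over sarcomere components, passed the limit. The same held for the 5 genes of the class with a COS box, a microtubule-binding segment, and a fibronectin domain. The largest differences were those of TRIM69, an interferon-induced ligase, with 4.13 in the FOXK2 array and 4.57 in the empty vector array, and TRIM51, with 4.32 in the FOXK2 array and 3.95 in the empty vector array. TRIM42 had 3.63 with FOXK2 and 3.31 with empty vector, and TRIM9, a brain ligase, 4.49 with FOXK2 and 4.76 with empty vector. Whether these values lie above background is not known from the file used here. Among them are 8 of the 9 measured genes listed as primate-duplicated copies of PRY-SPRY genes, which may share probes.

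Differences along the chromosomes moved with some of these values. Genes on chromosome 9 had a median difference of -0.26 and TRIM32 lies there, in a stretch where the median of 51 neighbouring genes was -0.28. After that median was subtracted, TRIM32 stood at -0.74 and no TRIM gene was 2-fold lower (2.05% of all genes were). TRIM14, on the same chromosome, then stood at 0.49 in place of 0.19. TRIM59, on chromosome 3 in a stretch at -0.36, then stood at -0.25, and TRIM2, on chromosome 4 in a stretch at -0.49, at 0.66. TRIM41 and TRIM52, which lie close together on chromosome 5, changed sign to 0.093 and 0.20, and TRIM44 to 0.038. The PHD-bromodomain genes lie on chromosomes 1, 7, 11 and 19 and kept a median of -0.54, and TRIM38 and TRIM16 stayed near their values at -0.78 and -0.79. With the neighbours subtracted, 20 of the 31 (64.5%) lay below 0, against 48.9% of all genes and 51.3% of protein-coding genes above the limit. The part of copy number or other regional features in these values was not tested.

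**Figure D4:**
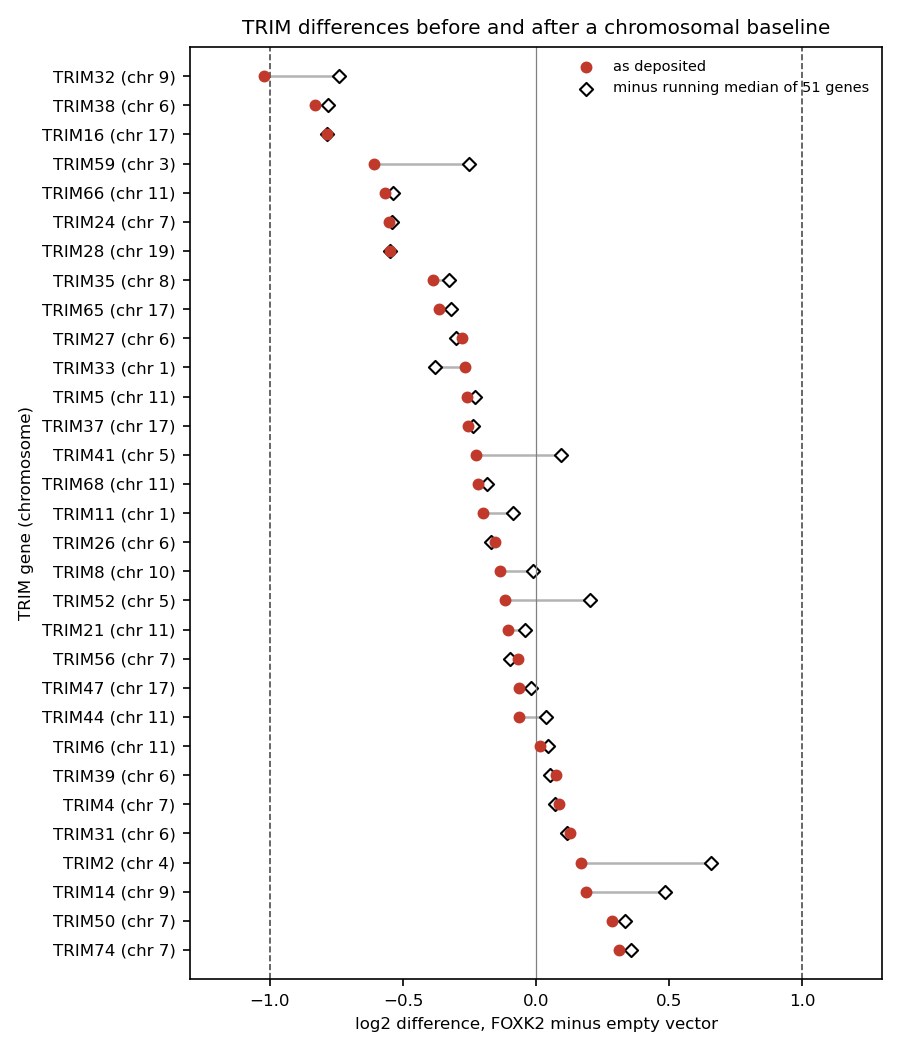
Log2 difference, FOXK2 minus empty vector (horizontal axis), of the 31 TRIM genes above the level limit as deposited (red circles) and after subtraction of the median of 51 neighbouring genes (open diamonds), with the chromosome of each gene and dashed lines at 2-fold. TRIM32 lies at -1.02 as deposited and at -0.74, inside the dashed line, after the subtraction, while TRIM16, TRIM24 and TRIM28 hardly move.

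Genes that work with TRIM proteins were then examined by list, and each count is to be read against all genes above the limit, of which 55.6% lay below 0, 10.6% were at least 1.5-fold lower and 6.09% at least 1.5-fold higher. All 8 measured E2 enzymes used by TRIM ligases (of 13 listed) passed the limit. 5 of them lay below 0 (62.5%), 0 reached 1.5-fold and the median was -0.057. The largest was UBE2V2, which pairs with UBE2N to build ubiquitin chains that do not lead to degradation, at -0.34, followed by UBE2N at -0.26. Of the silencing partners of TRIM28, 10 of 11 measured passed the limit and 7 lay below 0, with a median of -0.10. CHD3, a nucleosome remodeller bound by TRIM28, was 1.59-fold lower, at 9.92 with FOXK2 and 10.58 with empty vector, and ATF7IP, a partner of the methyltransferase SETDB1, differed by -0.45. The 9 measured SUMO and PML body genes had a median of -0.29, with 7 below 0. SAE1, a subunit of the enzyme that activates SUMO, differed by -0.58 and SUMO2 by -0.55.

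In the sensing pathways on which antiviral TRIM ligases act, 14 of 17 genes passed the limit, 9 lay below 0 (64.3%, against 55.6% of all genes), 0 reached 1.5-fold (10.6% of all genes were lower and 6.09% higher by as much) and the median was -0.044. TRAF6, itself a RING ligase, stood highest at 0.52. Among the 14, the RNA sensor RIGI was lowest at -0.49, followed by MAVS, the mitochondrial adaptor, at -0.45. Of the 3 genes that did not pass, 1 lay below 0, at -0.75. Of the 15 interferon response genes measured, 9 passed, with 4 below 0 (44.4%) and a median of 0.032. Of the 6 that did not pass, 5 lay below 0, the lowest at -1.41, and the median of all 15 was -0.20. JAK1, the kinase of interferon receptors, was 2.08-fold lower, at 13.31 with FOXK2 and 14.37 with empty vector, while IFNAR1, a receptor chain, was higher by 0.66. Family members with other names were few above the limit: PML, which organises nuclear bodies, was 1.75-fold lower at 6.41 with FOXK2 and 7.22 with empty vector, MID1, mutated in Opitz syndrome, was 1.68-fold lower at 5.55 with FOXK2 and 6.29 with empty vector, and its relative MID2 was higher by 0.43. Among single substrates and partners, 12 passed, 6 of them below 0, with NEFL as the 1 gene 2-fold higher and the autophagy receptor SQSTM1 as the 1 gene 2-fold lower (2.13% of all genes were 2-fold higher and 3.05% lower). All lists were chosen with earlier results of these arrays known, and none was tested.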

How the data were processed

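Gene expression was measured on Affymetrix whole-transcript arrays, 1 array per group. RNA was prepared with Trizol and labelled with the WT PLUS kit, per the labels' protocols. The authors used Affymetrix Expression Console, per the submitters' processing notes; version, settings and the array's genome build were not given in the sources used here. For 67528 transcript clusters the authors deposited log2 values, a scale read from their range, 2.13 to 19.93. Of these, 23781 clusters had 1 gene symbol; symbols were updated with RefSeq GRCh38.p14 names, and clusters of 1 gene were averaged. The build of the array is not named, so coordinates are given only for RefSeq promoters, and gene order for the running median of 51 genes comes from RefSeq.

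Differences were taken with no further normalization, called at 2-fold above the level limit, and not tested. All TRIM genes above the level limit are named; of each pathway list, members come from the 4 with the largest difference, while PAX8 was named as a lineage check after its values were seen. Members and lists were chosen with earlier results of these data known. Alternatives were median centring, loess (span 0.3), quantile normalization, the brightest cluster, other level and fold limits, and the running median. The code ran in statsmodels 0.14.6, pandas 2.3.3 and numpy 2.4.6 under Python 3.11.15 and was checked on simulated data. Proteins were not analysed here.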

Additional observations from a re-analysis of the deposited data

How the results depend on the processing

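No paired analysis was possible because each group has 1 array. The median difference of the TRIM genes above the level limit was below 0 under all 10 alternatives that bear on it, 2 of them (counting TRIM16L, leaving out alternative haplotypes) added after the data were seen: it ranged from -0.27 with centred arrays or the 75th percentile limit to -0.0060 with no level limit, where it covers all 62 genes, and the median of the 62 was 0.047 after subtraction of the running median. No alternative gave a gene at least 2-fold higher. The count of 1 gene called lower, TRIM32, was 0 after loess (-0.996), quantile normalization (-0.986) and subtraction of the running median (-0.74), with the 75th percentile limit and with a 3-fold limit, and 4 genes were lower at 1.5-fold; the limits change the count by construction. With the 75th percentile limit 12 TRIM genes remained and 11 lay below 0, against 23 of 31. Of all genes, 58.1% lay below 0 at that limit and 55.6% at the main one. The median of all genes above the limit moved too. It was -0.12 with centred arrays and -0.082 with the 75th percentile limit, against -0.050 as deposited.

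4 alternatives rescale every gene (the 3 scalings and the running median), and of the 124 values of single genes they give, 118 kept their sign; the 6 others were TRIM6 under 3 scalings and TRIM41, TRIM44 and TRIM52 under the running median. The brightest cluster can move only the 4 genes with several clusters, and all 4 kept their sign; the other limits leave a gene's own difference as it is. Class medians moved as follows. With no level limit the NHL class stood at 0.011, the class of other C-terminal domains at -0.25, family members with other names at 0.11 and interferon response genes at -0.20. With the 75th percentile limit the PRY-SPRY class with RING stood at -0.55, proteins without RING at -0.42, interferon-induced members at -0.45 and interferon response genes at 0.27. After the running median the NHL class stood at -0.041, other C-terminal domains at -0.24 and members with other names at -0.48. The PHD-bromodomain median ranged from -0.62 to -0.50 over its alternatives. Background was not available, and the number of arrays limits the precision.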

Other observations

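The 12 transcript clusters annotated to a TRIM gene together with another gene had differences between -0.36 and 0.56, none of which can be assigned to 1 gene.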
